A study of Rattus norvegicus with 10 samples.

Results

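FoxE1, the forkhead protein that follicular cells use to switch on hormone synthesis genes such as Tg, was silenced in PCCl3 cells, a differentiated rat thyroid follicular line, and the other forkhead genes were read on whole-genome arrays. The genes considered were Foxa1, Foxa2, Foxo1, Foxo3, Foxp1, Foxp4, Foxk1, Foxk2, Foxn3 and Foxq1, that is 10 relatives of Foxe1. Every non-control probe whose transcript belongs to one of them was taken, and Foxe1 itself was left out. This gave 11 probes of 30367, belonging to 8 of the 10 genes. No probe was matched to Foxo1 or Foxp4, which are not analysed here. Of the 11 probes, 10 could be tested, and they covered all 8 genes.

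Cells called siFoxE1 received 25 nM of a pool of rat FoxE1 siRNAs (ON-TARGET plus SMART pool) for 48 h. Cells called siScramble received a non-targeting siRNA pool, and wt cells were untreated. All cells grew in medium with serum, TSH and insulin, among other hormones. There were 2 comparisons, of siFoxE1 with siScramble and of siFoxE1 with wt, each on 4 individual two-colour arrays, 1 for each numbered biological replicate (here called a culture), with siFoxE1 in Cy5, and on 1 array of pooled RNA with the dyes swapped. The pooled RNA came from those cultures and is no further culture. Both comparisons used siFoxE1 RNA of the same cultures, so they are not independent of each other, and a single line and a single siRNA pool stand behind every value. Ratios are log2 siFoxE1 over siScramble or wt, so a negative value means a lower signal in siFoxE1.

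Forkhead proteins share a winged helix DNA-binding domain, and many of them bind a core of AAACA or a close variant of it. FoxA proteins open compact chromatin in endoderm, FoxO proteins are pushed out of the nucleus by insulin signalling through Akt, FoxP proteins act mainly as repressors, and FoxK proteins bind many of the sites that FoxO proteins bind and repress autophagy genes in fed cells. Related factors can take over from a missing member of the family, and siRNAs can lower transcripts that resemble their target. The comparison was therefore read for forkhead genes that were higher or lower after FoxE1 silencing.

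Foxe1 was measured first. Its log2 ratios were -0.77, -0.46, -0.62 and -0.39 in cultures 1 to 4 and -1.03 in the pool against siScramble, and -0.52, -0.56, -0.35 and -0.62 in cultures 1 to 4 and -1.21 in the pool against wt. Foxe1 was thus lower in siFoxE1 on all 10 arrays. In RNA of whole cultures, fewer expressing cells and less RNA per cell cannot be told apart. The fitted values were -0.79 (SE 0.0856, limma adjusted p = 0.0225) against siScramble and -0.86 (SE 0.0773, limma adjusted p = 0.0327) against wt. The call against siScramble was lost without culture 1 (adjusted p = 0.0540), and the call against wt was lost without culture 1 (0.235) or culture 4 (0.232). Both calls were also lost with processed signals (adjusted p = 0.180 and 0.175) and with a robust intensity trend (0.497 and 0.337), and that against siScramble without the filter on dim probes (0.0514) and on the 3 arrays that shared a slide with the wt arrays (-0.54, adjusted p = 0.0791). 

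Of the 8 genes with a probe, 7 were detected under every condition. The probes of Foxa2, Foxk1, Foxk2, Foxn3, Foxo3, Foxp1 and Foxq1, 9 in all, were well above background on 10 of 10 arrays in both dyes. Foxa1 was at the limit of detection. Its first probe was well above background on 0 of 10 arrays in Cy5 and 8 of 10 in Cy3, and its second probe on none, so that Foxa1 probe 2 was not tested. The thyroid follicular markers Tg, Tshr, Slc5a5, Pax8, Nkx2-1, Foxe1, Duox2 and Hhex were well above background on all 5 arrays in wt, and Slc26a4 was not. Markers of other cell types were fewer there. They were 2 of 5 for fibroblasts (Col1a1 and Pdgfra), 1 of 4 for endothelium (Cdh5) and 3 of 5 for leukocytes (Cd14, Cd68 and Lyz2). Of these 3 lists of other cell types, Cd68 alone passed the test, with a log2 fold change of -0.66 (limma adjusted p = 0.0147) against siScramble. That call rested on the pooled array (-1.34), since the 4 cultures lay between -0.0048 and 0.10, and against wt the value was -0.09 (adjusted p = 0.537).

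No forkhead gene considered here passed the test in either comparison. The 10 tested probes include the dim Foxa1 probe, whose values near 0 do not show an unchanged level. Of the 10 tested probes, 0 were called at an adjusted p under 0.05 against siScramble, where 0.127% of 18135 tested probes were called, and 0 against wt, where 0.0486% of 18525 were called. At an unadjusted p under 0.05, 5 of the 10 probes were lower and 0 higher in siFoxE1 against siScramble, beside 6.68% lower and 6.43% higher of all tested probes. Against wt, 4 of the 10 were lower and 0 higher, beside 9.14% lower and 8.01% higher of all. The median over the 10 probes was -0.16 in each comparison, beside -0.01 over all tested probes in each. Foxk1 and Foxk2 count with 2 probes each here. With each gene at its brightest tested probe, the medians were -0.05 against siScramble and -0.17 against wt. By gene, 3 of 8 were lower against siScramble and 4 of 8 against wt at an unadjusted p under 0.05. Of all genes, 16.5% and 21% passed in either direction. The probes that were lower at an unadjusted p belonged to Foxk1, Foxk2 and Foxn3 in both comparisons, and also to Foxa2 against wt.

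The 95% intervals rest on the spread between the 4 individual arrays of a comparison under this processing. In limma that spread is moderated toward the spread of all tested probes, so the intervals do not measure it alone. The dye term fits the single pooled array exactly, so its distance from the individual mean does not widen the intervals. Over the 10 probes, the highest upper 95% limit was 0.21 (Foxo3, a 1.16-fold increase) against siScramble and 0.35 (Foxq1, a 1.27-fold increase) against wt. The lowest lower limit was that of Foxn3 in both comparisons, -0.60 (a 1.51-fold decrease) against siScramble and -0.57 (a 1.48-fold decrease) against wt. None of the 10 intervals reached the fitted value of Foxe1 in the same comparison. That value also rested on the pooled array. The individual means of Foxe1 were -0.56 ± 0.17 against siScramble and -0.51 ± 0.12 against wt (SD, n = 4). On the individual arrays alone, the interval of Foxk2 probe 2 against wt (-0.57 to -0.09) reached the value of Foxe1 (-0.51). The upper limit of Foxo3 against siScramble was higher there (0.30), and that of Foxq1 against wt was lower (0.26). With the scanner software's processed signals, 2 values fell outside their own intervals, Foxa1 probe 1 against wt (-0.38, against -0.23 to 0.13) and Foxk1 probe 2 against siScramble (-0.56, against -0.41 to -0.09).

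**Figure D1:**
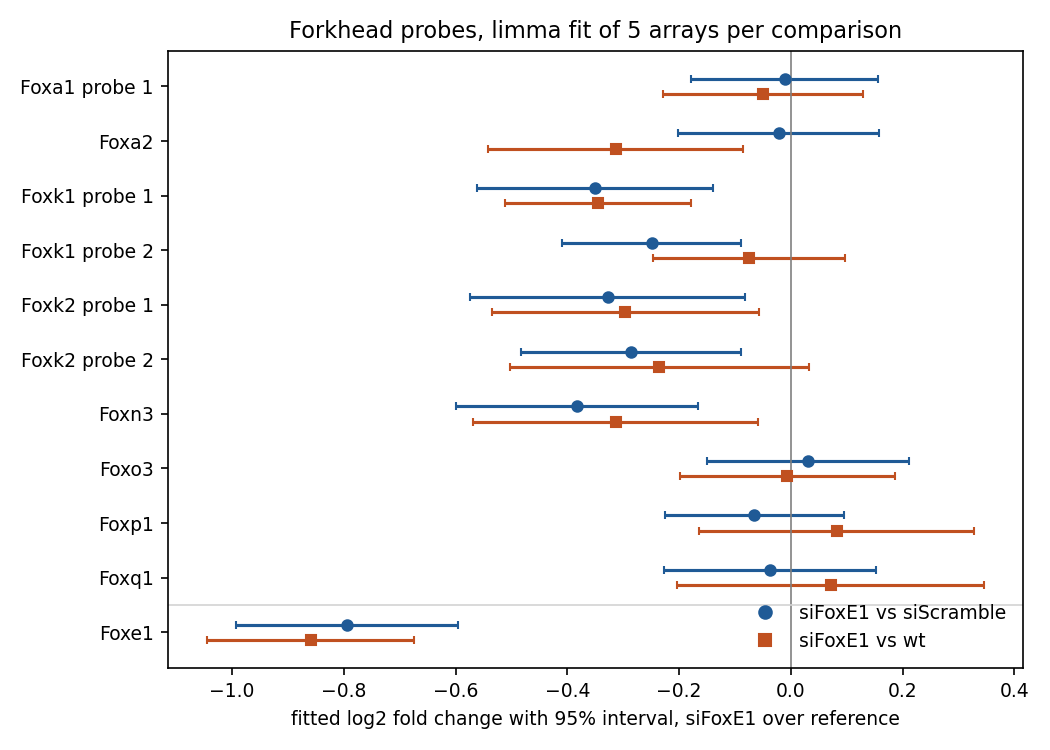
Fitted log2 fold change (horizontal axis) with its 95% interval for each tested forkhead probe and, at the bottom, Foxe1. Circles show siFoxE1 vs siScramble and squares show siFoxE1 vs wt, each from a limma fit of 5 arrays. The intervals of the Foxk1, Foxk2 and Foxn3 probes lie mostly below 0, and that of Foxe1 lies furthest to the left.

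Foxk1 and Foxk2 each had 1 probe of 2 that was lower in siFoxE1 on all 10 arrays, although neither passed the test. Of the other forkhead genes tested, Foxb2 and Foxi3 were also lower on all 10 arrays at their brightest tested probes. The Foxi3 ratios lay between -0.12 and -0.0012. The share of all tested probes that were lower on all 10 arrays was not computed. On all 5 arrays of a comparison, 9.98% were lower against siScramble and 12.8% against wt. Foxk1, a repressor that with Foxk2 is known to couple insulin signalling to glucose use, had 2 probes. The ratios of Foxk1 probe 1 against siScramble were -0.52, -0.06, -0.26 and -0.29 in cultures 1 to 4 and -0.42 in the pool. Against wt they were -0.14, -0.22, -0.29 and -0.14 in cultures 1 to 4 and -0.49 in the pool. All 10 values were negative. The log2 intensity of Foxk1 probe 1 was 9.52, 9.12, 9.36 and 9.45 in the siFoxE1 cultures, 10.08, 9.25, 9.61 and 9.70 in the siScramble cultures and 9.59, 9.28, 9.67 and 9.60 in the wt cultures. The levels of the 3 groups overlapped, since culture 2 was low under every condition, while within each culture the siFoxE1 level was the lowest.

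The fitted value of Foxk1 probe 1 was -0.35 (SE 0.0910, 95% interval -0.56 to -0.14, limma adjusted p = 0.223) against siScramble. Against wt it was also -0.35 (SE 0.0696, 95% interval -0.51 to -0.18, limma adjusted p = 0.233). The means of the individual arrays were -0.28 ± 0.19 against siScramble and -0.20 ± 0.07 against wt (SD, n = 4), so that in both comparisons the pooled array lay below the individual mean. With all 10 arrays in one fit and the culture number as a replicate block, Foxk1 probe 1 passed against wt (-0.32, limma adjusted p = 0.0473). That fit called 8.19% of all tested probes, 4.01% of them as lower. In the same fit it did not pass against siScramble.

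Foxk1 probe 2 had ratios of -0.25, -0.07, -0.22 and -0.25 in cultures 1 to 4 and -0.30 in the pool against siScramble. Against wt they were -0.08, -0.25, -0.26 and -0.14 in cultures 1 to 4 and 0.03 in the pool. The probe was thus lower in siFoxE1 on 9 of 10 arrays. Its fitted values were -0.25 (SE 0.0691, limma adjusted p = 0.235) against siScramble and -0.08 (SE 0.0717, limma adjusted p = 0.608) against wt, with individual means of -0.20 ± 0.09 and -0.18 ± 0.09 (SD, n = 4). With processed signals its value against siScramble (-0.56) had an adjusted p of 0.217. The ratios of the 2 Foxk1 probes correlated weakly (r = 0.20 over 10 arrays).

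Foxk2 is the paralog of Foxk1 and shares its forkhead-associated domain. Its 2 probes disagreed on the order of the cultures. Foxk2 probe 1 gave -0.50, 0.10, -0.16 and -0.24 in cultures 1 to 4 and -0.46 in the pool against siScramble, and -0.25, 0.10, 0.03 and -0.32 in cultures 1 to 4 and -0.48 in the pool against wt. Foxk2 probe 2 gave -0.24, -0.11, -0.34 and -0.51 in cultures 1 to 4 and -0.27 in the pool against siScramble, and -0.12, -0.12, -0.59 and -0.50 in cultures 1 to 4 and -0.14 in the pool against wt. Probe 2 was therefore lower in siFoxE1 on all 10 arrays, whereas probe 1 was higher in culture 2 in both comparisons and in culture 3 against wt. The fitted values were -0.33 (SE 0.106, limma adjusted p = 0.280) and -0.29 (SE 0.0848, limma adjusted p = 0.254) for probes 1 and 2 against siScramble, and -0.30 (SE 0.0999, limma adjusted p = 0.245) and -0.24 (SE 0.112, limma adjusted p = 0.325) against wt. Over the individual arrays the means were -0.20 ± 0.25 for probe 1 and -0.30 ± 0.17 for probe 2 against siScramble (SD, n = 4). Against wt they were -0.11 ± 0.20 for probe 1 and -0.33 ± 0.24 for probe 2 (SD, n = 4), so the value of probe 1 moved from -0.30 to -0.11 without the pooled array.

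The 2 Foxk2 probes did not rise and fall together across arrays (r = -0.01 over 10 arrays), while Foxk2 probe 1 and Foxk1 probe 1 had r = 0.70. Culture 2 also separated the Foxk2 probes by level. For probe 1 the siFoxE1 level was 9.81 in culture 2, above 9.21, 9.27 and 9.19 in cultures 1, 3 and 4. For probe 2 it was 8.12 in culture 2, below 9.15, 8.47 and 8.67 in cultures 1, 3 and 4. The files annotate both probes with the same transcript. On the 3 arrays of siFoxE1 vs siScramble that shared a slide, the value of Foxk2 probe 1 was -0.21 (adjusted p = 0.380) and that of probe 2 was -0.29 (adjusted p = 0.196). The array of culture 3 and the pooled array of that comparison were on another slide.

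Foxn3, a repressor known as a checkpoint gene of the cell cycle, had the most negative fitted value against siScramble. Its ratios were -0.16, 0.04, -0.36 and -0.39 in cultures 1 to 4 and -0.55 in the pool against siScramble, and -0.08, -0.14, -0.58 and -0.18 in cultures 1 to 4 and -0.38 in the pool against wt. The gene was lower in siFoxE1 on 9 of 10 arrays. The levels were 10.14, 9.52, 9.45 and 9.80 in the siFoxE1 cultures, 10.30, 9.43, 9.77 and 10.23 in the siScramble cultures and 10.21, 9.70, 10.06 and 9.95 in the wt cultures, and the 3 groups overlapped.

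The fitted values of Foxn3 were -0.38 (SE 0.0931, limma adjusted p = 0.217) against siScramble and -0.31 (SE 0.106, limma adjusted p = 0.245) against wt, with individual means of -0.22 ± 0.20 and -0.24 ± 0.23 (SD, n = 4). On the shared slide alone the value against siScramble was -0.17 (adjusted p = 0.402). When the 10 arrays were fitted together and the replicate block was left out, Foxn3 passed against wt (-0.34, limma adjusted p = 0.0452), in a fit that called 8.87% of all tested probes and 4.46% as lower. With the block it did not pass. The lowest individual ratios against wt for both Foxn3 and Foxk2 probe 2 were on the array of culture 3. The spread of all ratios was the widest on that array (SD 0.442 over probes, against 0.171 to 0.301 on the other 9). Without culture 3, the fitted values against wt moved from -0.31 to -0.26 for Foxn3 and from -0.24 to -0.19 for Foxk2 probe 2. The cause of the wide spread was not tested.

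**Figure D2:**
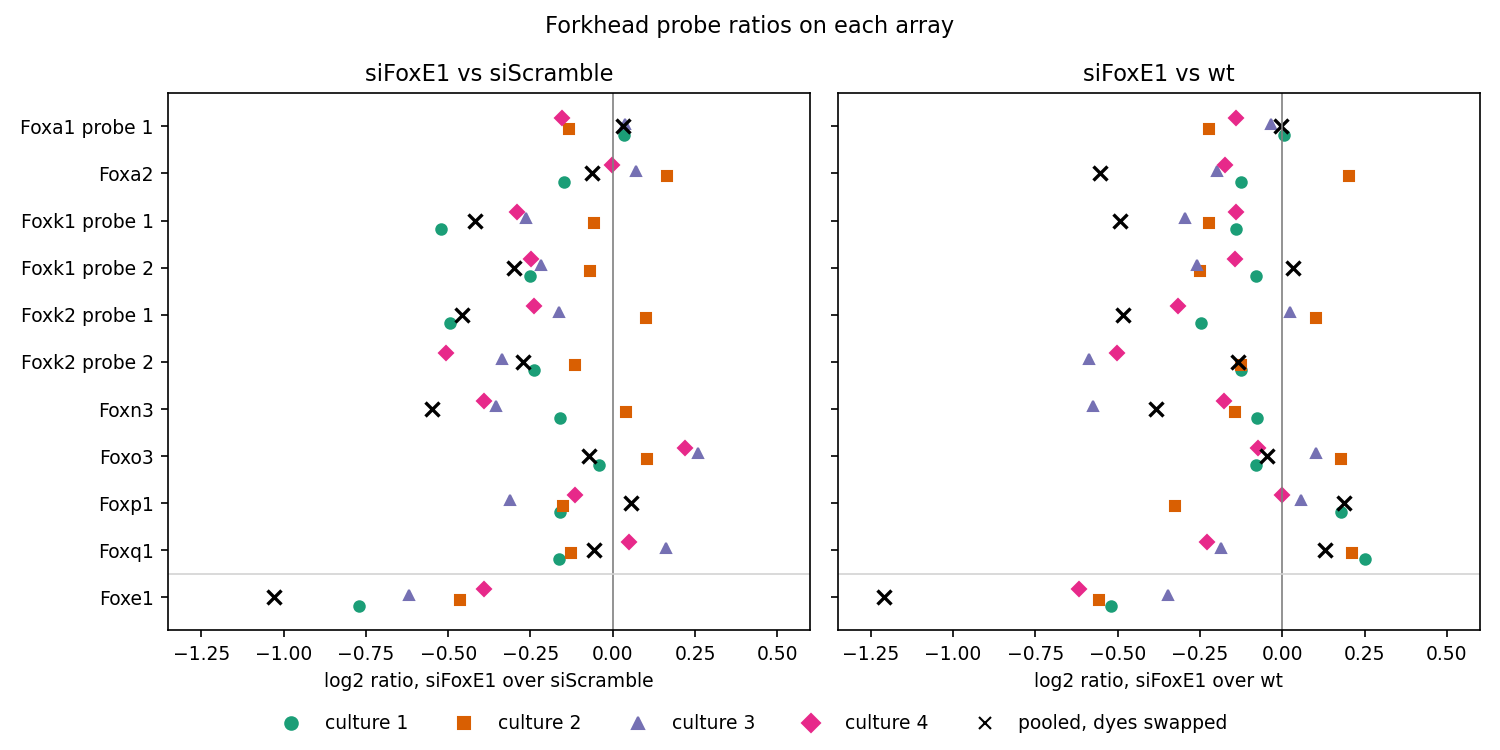
Log2 ratio of siFoxE1 over siScramble (left) and over wt (right) on each array, for the tested forkhead probes and Foxe1. Coloured symbols are the 4 cultures and crosses are the pooled arrays with swapped dyes. Against siScramble, culture 2 lies furthest to the right among the individual arrays for each Foxk1, Foxk2 and Foxn3 probe.

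Counted by sign, 3 of the 10 probes were below 0 on all 5 arrays against siScramble (both Foxk1 probes and Foxk2 probe 2), beside 9.98% of all tested probes. Against wt there were also 3 of 10 (Foxk1 probe 1, Foxk2 probe 2 and Foxn3), beside 12.8%. None of the 10 was above 0 on all 5 arrays of a comparison, beside 7.78% of all tested probes against siScramble and 9.25% against wt.

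**Figure D3:**
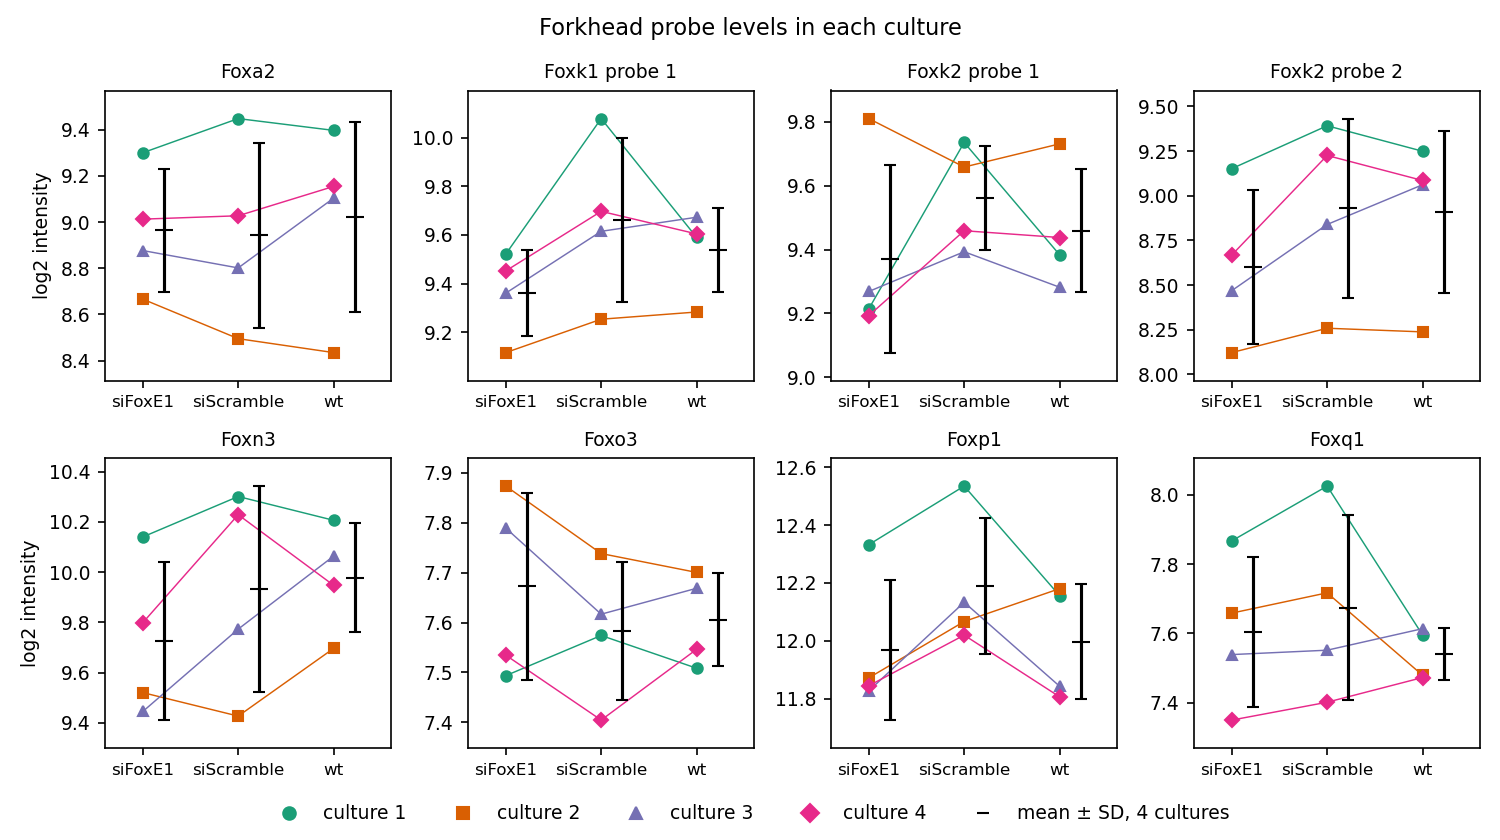
Log2 intensity (vertical axis, a scale of its own for each probe) of 8 forkhead probes in siFoxE1, siScramble and wt cultures. Lines join the same culture number, and black bars give the mean ± SD over 4 cultures. The range over the cultures of one condition is wider than the distance between the condition means for each of the 8 probes. The tests used the ratios within each array, so they do not rest on this range.

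FoxA genes were next. Foxa2, which drives endoderm genes in liver, lung and pancreas, had ratios of both signs against siScramble, -0.15, 0.17, 0.07 and -0.0020 in cultures 1 to 4 and -0.06 in the pool. Its fitted value there was -0.02 (SE 0.0775, 95% interval -0.20 to 0.16, limma adjusted p = 0.953). Against wt the ratios were -0.13, 0.20, -0.20 and -0.17 in cultures 1 to 4 and -0.55 in the pool, and the fitted value was -0.31 (SE 0.0951, limma adjusted p = 0.239). The individual mean against wt was only -0.07 ± 0.19 (SD, n = 4), so the fitted value rested mostly on the pooled array. Foxa2 levels were 9.30, 8.67, 8.88 and 9.01 in the siFoxE1 cultures, 9.45, 8.50, 8.80 and 9.03 in the siScramble cultures and 9.40, 8.44, 9.10 and 9.15 in the wt cultures. Culture 1 was high and culture 2 low under every condition.

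Foxa1, the close relative of Foxa2, gave ratios from -0.15 to 0.04 against siScramble and from -0.22 to 0.0061 against wt at its first probe. The fitted values were -0.01 (SE 0.0721, limma adjusted p = 0.977) and -0.05 (SE 0.0749, limma adjusted p = 0.756). The probe met the filter only through siScramble and wt, and its signal was close to background. These values therefore do not show that Foxa1 was unchanged. In the comparison with siScramble, this probe was not well above background in siFoxE1 on any of the 5 arrays and was above it in siScramble on 3, while 3 of the 5 ratios were above 0. The individual arrays place siFoxE1 in Cy5, where Foxa1 probe 1 was above background on none of the 10 arrays. On the individual arrays, dye and condition therefore cannot be told apart in these detection calls. On the pooled wt array, with the dyes swapped, the probe was above background in siFoxE1 (Cy3) and not in wt (Cy5). On the pooled siScramble array it was above background in neither. Foxa1 probe 2 had levels from 5.88 to 6.02 in siFoxE1, 5.88 to 5.96 in siScramble and 5.90 to 6.03 in wt, all not well above background.

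Foxo3, a FoxO factor that induces stress resistance, cell cycle arrest and death genes when insulin signalling is low, had fitted values close to 0. Its ratios were -0.04, 0.10, 0.26 and 0.22 in cultures 1 to 4 and -0.07 in the pool against siScramble, and -0.08, 0.18, 0.10 and -0.07 in cultures 1 to 4 and -0.04 in the pool against wt. The fitted values were 0.03 (SE 0.0780, 95% interval -0.15 to 0.21, limma adjusted p = 0.922) and -0.01 (SE 0.0802, 95% interval -0.20 to 0.19, limma adjusted p = 0.977). The array signs were mixed in both comparisons. The individual means were 0.13 ± 0.14 against siScramble and 0.03 ± 0.13 against wt (SD, n = 4).

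Foxp1, a repressor studied mainly in lymphocytes, heart and lung, did not pass either. Its ratios were -0.16, -0.15, -0.31 and -0.11 in cultures 1 to 4 and 0.05 in the pool against siScramble, and 0.18, -0.32, 0.06 and -0.0018 in cultures 1 to 4 and 0.19 in the pool against wt. All 4 cultures were thus lower in siFoxE1 than in siScramble, but the pooled array with swapped dyes was not. The fitted values were -0.06 (SE 0.0693, limma adjusted p = 0.756) against siScramble and 0.08 (SE 0.103, limma adjusted p = 0.706) against wt. Foxp1 levels were 12.33, 11.87, 11.83 and 11.84 in the siFoxE1 cultures, 12.53, 12.07, 12.13 and 12.02 in the siScramble cultures and 12.16, 12.18, 11.84 and 11.81 in the wt cultures.

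Foxq1, known for its roles in hair and in epithelial to mesenchymal transition, had ratios of -0.16, -0.13, 0.16 and 0.05 in cultures 1 to 4 and -0.06 in the pool against siScramble. Against wt they were 0.25, 0.21, -0.19 and -0.23 in cultures 1 to 4 and 0.13 in the pool. Each culture changed sign between the 2 comparisons. The fitted values were -0.04 (SE 0.0818, 95% interval -0.23 to 0.15, limma adjusted p = 0.907) and 0.07 (SE 0.115, 95% interval -0.20 to 0.35, limma adjusted p = 0.777).

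No array carried siScramble against wt, so that difference was taken indirectly from both comparisons in one fit of 10 arrays. Over the 10 forkhead probes it ran from -0.17 (Foxa2) to 0.16 (Foxp1), and none passed at an unadjusted p under 0.05. With the replicate block Foxa2 alone did so (95% interval -0.35 to -0.0023, limma adjusted p = 0.420). The fit without the block called 0 of 18858 probes at an adjusted p under 0.05 (limma), while 664 of them (3.52%) had an unadjusted p under 0.05. For Foxk1 probe 1 the indirect difference was 0.05 (95% interval -0.14 to 0.25) and for Foxn3 it was 0.01 (95% interval -0.24 to 0.27).

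Because FoxE1 binds DNA through a core of AAACA, which in thyroid promoters can lie near a TTGG element of the NF1/CTF family, the promoters of the members were searched on both strands. RefSeq promoter sequences of the build GRCr8 (250 bases before to 50 after the start of the gene) were at hand for 7 of the 10 genes, and not for Foxa1, Foxk1 or Foxo3. AAACA was found in 3 of the 7 (Foxa2, Foxp1 and Foxq1), beside 51.9% of 33465 promoters of this length. TTGG followed after 5 to 30 bases by AAACA was found in 1 of the 7 (Foxa2), beside 7.38% of all. The promoters of Foxk2 and Foxn3 held neither motif. A match is a stretch of letters and not a measured binding site. The windows around matches in the 3 promoters are given to show which letters were found, each on the strand of its gene with the core in capitals (AAACA, or TGTTT where the match was on the opposite strand). Distances run from the start of the gene to the first base of the core.
Foxa2, chr3:155927695-155927719, minus strand, distance -201: aatttttataAAACAgtcctggcct
Foxa2, chr3:155927589-155927613, minus strand, distance -95: cctactgcccTGTTTgttttagtta
Foxa2, chr3:155927530-155927554, minus strand, distance -36: agtaaccttgAAACAccgaggccct
Foxp1, chr4:133353430-133353454, minus strand, distance -164: gaatgagaacTGTTTacagagtttg
Foxp1, chr4:133353414-133353438, minus strand, distance -148: cagagtttggAAACAtgttatggca
Foxp1, chr4:133353373-133353397, minus strand, distance -107: gaacagcaagTGTTTtaacagctgc
Foxq1, chr17:33124277-33124301, minus strand, distance -204: gccagacccaAAACAaacaacctgc
The 3 genes with the core were Foxa2, Foxp1 and Foxq1, whose fitted values against siScramble were -0.02, -0.06 and -0.04. Against wt they were -0.31, 0.08 and 0.07. Foxa2 and Foxq1 each held 1 further match that overlaps a match shown.

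Of the 33 remaining forkhead genes, 18 had a probe and 11 were tested, and none passed in either comparison (0.153% of 9807 genes passed against siScramble and 0.0301% of 9972 against wt). At an unadjusted p under 0.05, 1 was higher and 1 lower in each comparison, beside 16.5% of all genes in either direction against siScramble and 21% against wt. The medians were 0.02 in each comparison. Foxc1, a factor of mesenchyme and eye development, had fitted values of 0.26 (SE 0.0950, limma adjusted p = 0.307) against siScramble and 0.30 (SE 0.0841, limma adjusted p = 0.233) against wt. It was higher in siFoxE1 on 9 of 10 arrays, all but culture 1 against siScramble (-0.10). Foxb2 had -0.21 (limma adjusted p = 0.292) and -0.29 (limma adjusted p = 0.233), with ratios from -0.32 to -0.09 against siScramble and from -0.52 to -0.19 against wt. Foxo4, the FoxO factor detected beside Foxo3, had 0.17 (limma adjusted p = 0.566) and 0.24 (limma adjusted p = 0.331), and in both comparisons was negative in culture 2 alone (-0.08 and -0.07). Foxm1, which drives mitotic genes and is named here after its values were seen, had -0.57, -0.07, 0.28 and 0.11 in cultures 1 to 4 and 0.11 in the pool against siScramble. Against wt it had -0.13, -0.03, 1.07 and 0.19 in cultures 1 to 4 and 0.20 in the pool.

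Genes that act on or after forkhead factors were read as groups, each gene by its brightest tested probe, and none passed in either comparison. Known FoxO target genes had 22 of 30 members tested. At an unadjusted p under 0.05, 5 were higher and 1 lower in siFoxE1 against siScramble, where 16.5% of all genes passed in either direction, and 6 were higher and 1 lower against wt, where 21% did. The medians were 0.07 and 0.10, beside 0.0011 and -0.0020 over all genes. Klf2, a FoxO target that keeps endothelium and lymphocytes quiescent, had ratios of 0.67, 0.41, 0.90 and 0.98 in cultures 1 to 4 and 0.37 in the pool against siScramble, and 0.63, 0.75, 0.74 and 0.88 in cultures 1 to 4 and 0.75 in the pool against wt. It was higher in siFoxE1 on all 10 arrays and came close to the threshold against wt (0.75, SE 0.0748, limma adjusted p = 0.0525), with 0.56 (SE 0.109, limma adjusted p = 0.168) against siScramble. Pik3ip1, an inhibitor of PI3K, had 0.54 (limma adjusted p = 0.327) and 0.82 (limma adjusted p = 0.260), positive on all arrays but those of culture 2 (-0.12 in each comparison). Gadd45a, a DNA damage gene, had -0.49 (limma adjusted p = 0.345) and -0.54 (limma adjusted p = 0.333), with its lowest ratios in culture 3 (-1.25 and -1.55).

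Of the insulin, PI3K and Akt genes that control FoxO, 21 of 27 were tested against siScramble and 22 against wt, with medians of -0.03 and -0.05. At an unadjusted p under 0.05, 0 were higher and 2 lower against siScramble, and 1 was higher and 3 lower against wt. These counts, and those of the next 2 lists, stand beside the same 16.5% and 21% of all genes. Sgk1, a kinase that like Akt phosphorylates FoxO proteins, had -0.02 against siScramble and -0.37 (limma adjusted p = 0.242) against wt. Its indirect difference of siScramble over wt was -0.31 (95% interval -0.58 to -0.04, limma adjusted p = 0.984). Prmt1, which methylates FoxO1, had -0.19 (limma adjusted p = 0.363) and -0.25 (limma adjusted p = 0.239), and Phlpp1, a phosphatase of Akt, had 0.13 and 0.21. Of the partners and corepressors of forkhead proteins, 20 of 25 were tested, with medians of -0.0026 and 0.07. Here 1 gene was higher and 1 lower against siScramble, and 4 were higher and 1 lower against wt, at an unadjusted p under 0.05. Tle3, a Groucho corepressor, had 0.28 (limma adjusted p = 0.322) and 0.48 (limma adjusted p = 0.239). Pax8, the paired-box factor of thyroid cells, had 0.20 and 0.33, and the corepressor Ctbp2 had -0.24 and -0.23. FoxM1 target genes had 11 of 12 members tested, with medians of -0.02 and 0.10, and at an unadjusted p under 0.05 1 was higher against siScramble, 2 were higher against wt and none was lower. Aurkb, a mitotic kinase of this list, had 0.32 and 0.65, with 1.06 on the array of culture 3 against wt. Cdc25b, a phosphatase of mitotic entry, had 0.22 and 0.42, and the mitotic kinesin Kif20a had 0.09 and 0.33. In the indirect difference of siScramble over wt, the median was 0.24 for FoxM1 targets and 0.06 for FoxO targets. It was -0.02 for the PI3K and Akt genes and 0.02 for the partners.

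**Figure D4:**
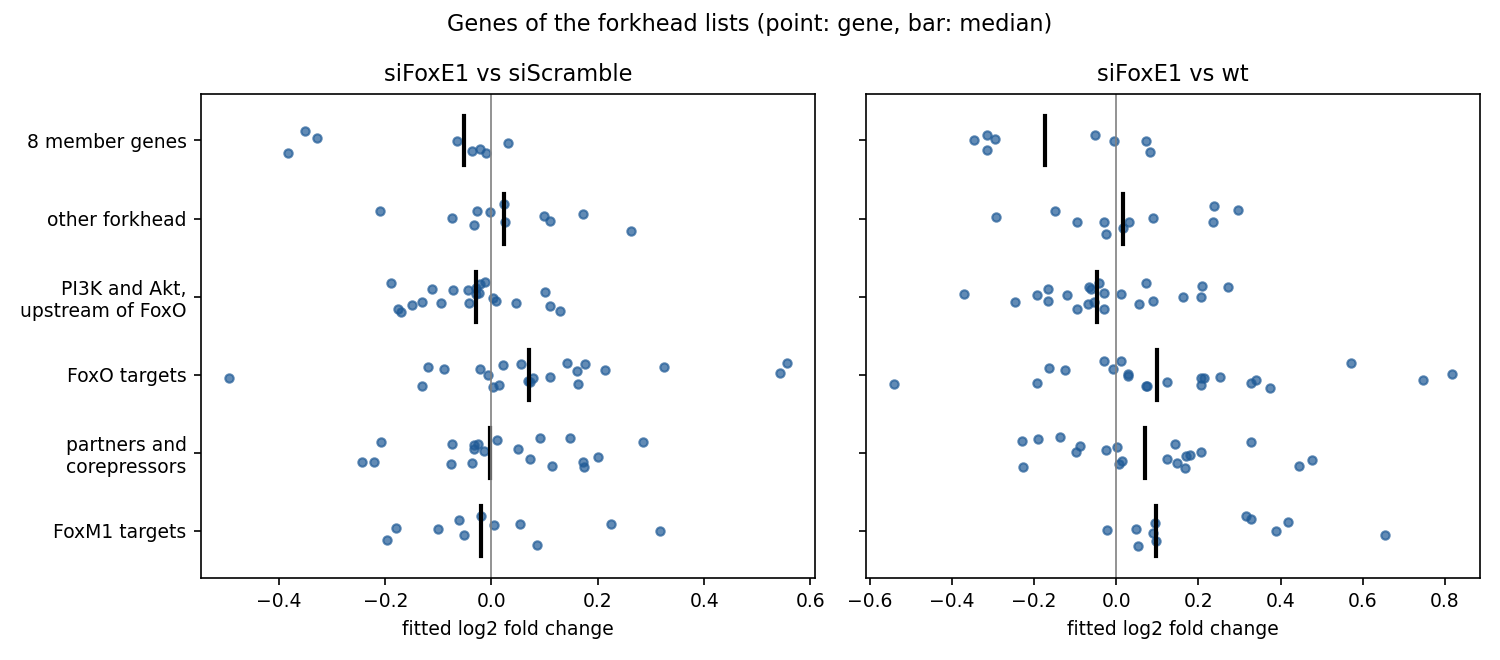
Fitted log2 fold change (horizontal axis) of the 8 member genes and of the genes of 5 forkhead lists, against siScramble (left) and wt (right). Each point is a gene at its brightest tested probe, spread vertically for clarity, black bars are medians, and each panel has its own scale. The members' medians are -0.05 against siScramble and -0.17 against wt, and the FoxO targets' are 0.07 and 0.10.

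The genes whose ratios followed a member most closely were found among 9659 genes by Pearson's r over the 10 arrays, which share cultures and siFoxE1 RNA. For Foxk1 they were Pcyox1l (r = 0.90), Adgrb1 (0.85) and Kctd15 (0.83). For Foxk2 probe 1 (probe 2 was not used) they were Gpr63 (0.96), Sms (0.95) and Ccdc12 (0.92), and for Foxn3 they were Fam110c (0.94), Cavin2 (0.94) and Tjp1 (0.93), the last a protein of tight junctions. Foxa2 had Noc4l (0.97), Psmd9 (0.97) and Ep400 (0.96) nearest to it, and Foxo3 had Ppp4c (0.96), Glis2 (0.89) and Naa40 (0.89). For Foxp1 they were Rnf166 (0.93), Serpini1 (0.90) and Lmo4 (0.90), for Foxq1 they were Dvl3 (0.87), Cited4 (0.76) and Prlh (0.74), and for the dim Foxa1 probe they were Ctsc (0.91), Igbp1 (0.91) and Igfbp1 (0.90). Among the members, Foxk2 probe 2 and Foxn3 had r = 0.58 and Foxk1 probe 1 and Foxn3 had r = 0.55.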

How the data were processed

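RNA of PCCl3 cells was hybridised by the authors to 10 two-colour Agilent arrays, scanned and read with Feature Extraction 10.7.3.1. The deposited scanner files hold intensity values (median and processed signals of each spot). The series' deposited value table, on a log2 scale per spot, was used only to check orientation, together with the deposited log10 ratios of the scanner software. Per the labels, the authors used limma 3.2.3 (loess, then quantile).

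Here, median signals were corrected with normexp (offset 50), normalised by loess within and quantile between arrays with limma 3.58.1 in R 4.3.3, leaving out control and outlier spots, and averaged per probe. A probe was tested if well above background on at least 3 of 5 arrays in one channel. Each comparison was fitted on its 5 arrays with a dye term (3 residual degrees of freedom), so the estimate averages the individual mean and the pooled ratio. The p-values were adjusted by Benjamini-Hochberg over all tested probes and called under 0.05. Intensities per condition are after loess and Aquantile. They are not absolute amounts, so no probe's level is set against another's. The number of arrays limits the precision, and p-values measure the spread between these cultures.

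Probes were named through RefSeq transcripts of GRCr8 (17998 probes), the study's gene lists for these probes (113) or not at all (12256). Same-numbered cultures deviated together (r = 0.62, 0.76, 0.76 and 0.41), and both comparisons used siFoxE1 RNA of the same number, so the numbers pair the arrays. Different numbers ranged from -0.65 to 0.51, and culture 4 against siScramble correlated more with culture 3 (0.51) than with culture 4 against wt. In one fit of all 10 arrays the correlation within a number was 0.52. The dyes follow the labels; a design drawing of the study shows them the other way round, and Foxe1 was lower in siFoxE1 on all arrays with the labels' dyes. Named genes were the members, Foxe1, up to 3 genes of each list with the largest mean change, any list gene that passed, and the 3 nearest genes by correlation. Members and lists were chosen with earlier results of these data known. The procedure was run on simulated data with independent noise, no dye effect and no shared RNA. The planted changes were larger than any member's fitted value. That run does not show how small a change could be found here. Alternatives covered background, normalisation, filter, dye term, trend, slide, pairing and each left-out culture. Some cell type marker genes are not reported here.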

Additional observations from a re-analysis of the deposited data

Results flagged for a closer look

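Of 50 groups of 4 cultures (each forkhead probe's log2 intensity in each condition or ratio in each comparison), 2 held a culture far from the other 3. Chance gives about 1 in 20 such groups. Foxk2 probe 1 stood at 9.81 in siFoxE1 culture 2, with the other 3 siFoxE1 cultures between 9.19 and 9.27. Foxp1 stood at 12.33 in siFoxE1 culture 1, with the other 3 between 11.83 and 11.87.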

How the results depend on the processing

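No forkhead probe passed in the main fits, and the count of called members left 0 under 3 alternatives. It was 2 (Foxk1 probe 1 and Foxk2 probe 2) without the dye term and 1 (Foxk1 probe 1) when the 10 arrays were fitted together with no replicate block, both against siScramble. Against wt it was 2 (Foxk1 probe 1 and Foxn3) in that fit without the block and 1 (Foxk1 probe 1) with the replicate block. Over all probes, the count of 23 against siScramble became 726 without the dye term, 519 on individual arrays alone, 0 with processed signals, 0 with a robust intensity trend, 98 in one fit of all arrays, 65 with the replicate block, 37 on the shared slide, and 12 to 35 with a culture left out. The count of 9 against wt became 847, 227, 0, 0, 1643 and 1517 under the first 6 of these settings, and 0 (without culture 4) to 65 (without culture 3). The cause was not tested. Against the same fit without it, the block ended the calls of Foxk1 probe 1 against siScramble (adjusted p = 0.109) and Foxn3 against wt (0.0536). Against the separate fits it changed no other call among members.

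Values near 0 changed sign. Against siScramble, Foxa2 was 0.0047 without the dye term, 0.022 on individual arrays and 0.0054 on the shared slide, and -0.045 to 0.0070 with a culture left out. Foxa1 probe 1 was 0.0033 without background correction and -0.026 to 0.0060 with a culture left out. Against wt, Foxo3 was 0.017 without the dye term, 0.033 on individual arrays, 0.0021 without background correction, 0.00016 with loess only and -0.031 to 0.012 with a culture left out, and Foxp1 was -0.022 on individual arrays. In the indirect difference of siScramble over wt, processed signals gave 0.0043 for Foxk2 probe 2 and -0.0078 for Foxn3. With a culture left out it ran from -0.030 to 0.11 (Foxk1 probe 1), -0.030 to 0.062 (Foxk2 probe 2), -0.039 to 0.070 (Foxn3), -0.026 to 0.16 (Foxq1) and -0.062 to 0.062 (Foxe1). The dim Foxa1 probe is limited by its signal, close to background.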
